A study of Drosophila melanogaster with 53 samples.

Results

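The comparison described here asked what 1 mutant copy of daw changes in the muscle of *Drosophila melanogaster* females homozygous for mutations of mir-252 and foxo. It set 3 libraries of flies of the genotype daw c458/+ with homozygous mir-252 c328 and foxo c431 (the daw heterozygote) against 3 libraries of flies with homozygous mir-252 c328 and foxo c431 alone (the double mutant). These are 6 of the 53 samples of the series. The mir-252 and foxo mutations were thus shared by both groups, and the daw allele was the only labelled difference. All flies were 3 d old after eclosion, conventionally cultured at 25 °C and 60% humidity, and polyadenylated RNA was taken from muscle. The same table held 3 libraries each of the control line w1118 (called WT), of homozygous mir-252 c328 flies and of homozygous foxo c431 flies. The genes described were chosen by level alone: 8357 of 10258 listed genes had a mean of at least 10 normalised reads over the 15 libraries and were tested. The genes nearest that limit were MRE23 (mean 10.01) and CG10062 (10.03) inside it and CG7694 (9.988) and sob (9.989) outside it. The labels do not give the lesion of the daw allele, nor whether libraries of a group came from separate flies, and the p-values therefore rest on the variation among these libraries alone, part of which may be technical.

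Dawdle, the product of daw, is an activin-like ligand of the TGF-beta superfamily. Activin ligands bind the type I receptor Baboon together with the type II receptors Punt or Wishful thinking, and the receptor complex phosphorylates the transcription factor Smox, which acts with the co-Smad Medea. In adult fly muscle, activin signalling is known as a negative regulator of autophagy and of protein homeostasis, and daw is known as a gene repressed by FoxO. FoxO is the transcription factor that insulin signalling keeps out of the nucleus, and microRNAs such as miR-252 lower the stability or translation of their target transcripts. In bulk muscle RNA, a lower value can come from fewer cells of a type or from less RNA per cell, and the 2 cannot be told apart.

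The daw transcript (FBgn0031461, BDGP6 coordinates 2L 2805261 to 2812376) was read at 414, 456 and 422 normalised reads in the double mutant and at 438, 361 and 468 in the heterozygote. The 2 groups overlapped, with means of 430.4 ± 22.5 and 422 ± 55.0 (SD, n = 3). The log2 difference was -0.03 ± 0.14 (SE), with a 95% interval of -0.34 to 0.27 and limma adjusted p = 0.931, so the read count of daw gave no check of the genotype label. The levels in WT (317, 403 and 459) and in the foxo mutant (426, 515 and 492) overlapped with both groups in part, while those in the miR-252 mutant (259.5, 307 and 358) were below all 6 libraries. Of the receptor and effector genes, the babo log2 difference was 0.02 ± 0.15 (adjusted p = 0.966), that of Smox 0.11 ± 0.12 (adjusted p = 0.693) and that of the ligand gene Actbeta 0.22 ± 0.21 (adjusted p = 0.643). None of the 11 tested activin pathway genes and none of the 8 tested genes of the related BMP pathway passed with limma, nor with edgeR or DESeq2, and 0 and 1 of them had an unadjusted limma p under 0.05. The foxo transcript stood at 699.9, 587 and 579.8 reads in the double mutant and 619, 586 and 733 in the heterozygote (log2 0.05 ± 0.12 SE, limma adjusted p = 0.863), which is the same mutant allele in both groups. The microRNA itself is not among the listed genes. Atg8a, which encodes the ubiquitin-like protein of autophagosome membranes, was read at 1998, 1898 and 1921 in the double mutant and 2294, 2703 and 2473 in the heterozygote. All 3 heterozygous libraries were above the double mutant libraries, yet Atg8a missed the threshold (log2 0.36 ± 0.11 SE, limma adjusted p = 0.0777), and none of the 20 tested autophagy genes passed with limma or edgeR. With DESeq2, and with limma after upper-quartile scaling, 1 of them rose, and 2 had an unadjusted limma p under 0.05. Such a p was found for 1578 of all 8357 tested genes.

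Of the 8357 genes tested, 425 (5.09%) passed at an adjusted p under 0.05 with limma, 233 of them higher in the heterozygote (2.79%) and 192 lower (2.30%). The median log2 change over all tested genes was -0.02, that of the genes that rose 0.58 and that of the genes that fell -0.65. At least 2-fold changes were found for 30 genes that rose and 40 that fell. For 415 of the 425 genes the libraries of the 2 groups did not overlap, as against 21.3% of all tested genes. Scaling the libraries to a common upper quartile moved the median of all genes to 0.03 and the split to 320 higher and 153 lower. The libraries held 3294056 to 4078819 reads, the heterozygous ones 3324195 to 3404800 and the double mutant ones 3611147 to 4078819, with 265 to 313 and 149 to 216 genes at 0. Log2 values correlated at 0.979 to 0.982 within the double mutant, at 0.969 to 0.979 within the heterozygote and at 0.962 to 0.974 between them. Double mutant replicate 3 weighed most on the number of calls. Without it 66 genes rose (0.790%) and 44 fell (0.527%), and without replicate 2 of that genotype 128 rose (1.53%) and 100 fell (1.20%). Leaving out heterozygote replicates 1, 2 or 3 gave 165, 154 and 160 rises (1.97%, 1.84% and 1.91%) and 171, 163 and 128 falls (2.05%, 1.95% and 1.53%), and without double mutant replicate 1 there were 261 rises (3.12%) and 218 falls (2.61%). Of the 425 genes, 78 passed in each of these 6 fits and 6 in none of them, and all 425 kept their sign.

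**Figure D1:**
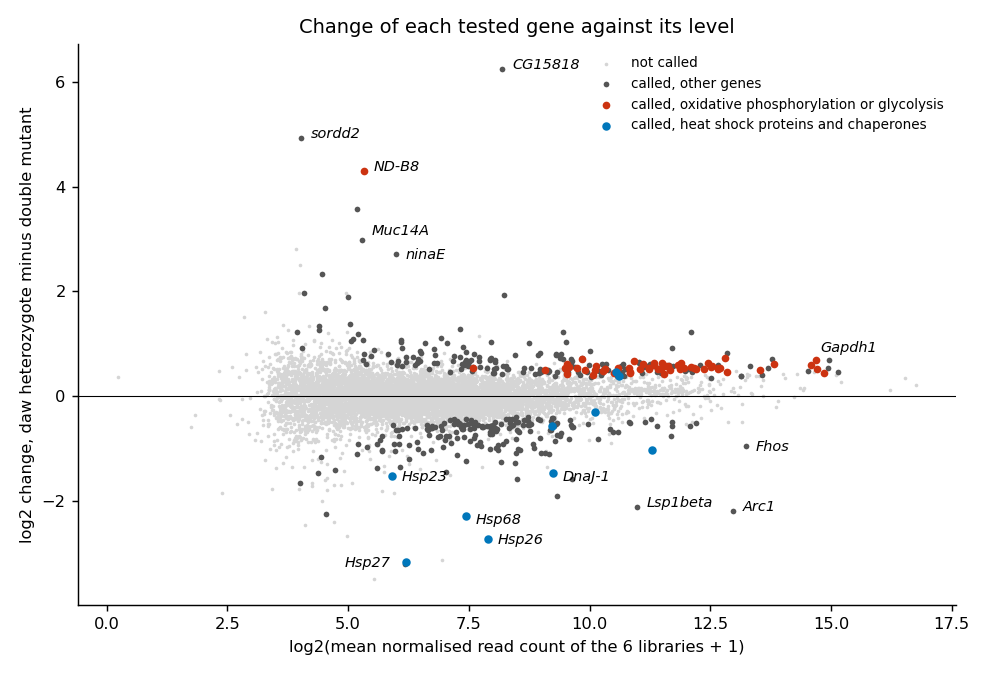
Each point is 1 of the 8357 tested genes, with log2 of its mean normalised read count plus 1 on the horizontal axis and the log2 change of the daw heterozygote against the miR-252 foxo double mutant on the vertical axis. Coloured points passed at a limma adjusted p under 0.05. The called genes of oxidative phosphorylation and glycolysis (red) all lie above 0, most of them near 0.5, while the heat shock genes Hsp23, Hsp26, Hsp27 and Hsp68 (blue) lie between -1.52 and -3.17.

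The heat shock genes Hsp27, Hsp26 and Hsp68 had the largest falls among the called genes after CNMaR, which is described last. Among the small heat shock proteins, chaperones that hold unfolding proteins in a soluble state, Hsp27 was read at 92.3, 182 and 118 in the double mutant and 16.4, 14.0 and 9.62 in the heterozygote. Hsp26 stood at 321, 530.5 and 382 against 74.2, 94.9 and 29.9, and Hsp23 at 64.6, 110.3 and 89.9 against 28.4, 37.7 and 23.5. For all 3 genes every heterozygous library was below every double mutant library. All 3 fell, Hsp27 by the most (log2 -3.17 ± 0.43 SE, limma adjusted p = 0.000444), then Hsp26 (log2 -2.73 ± 0.46 SE, limma adjusted p = 0.00288) and Hsp23 (log2 -1.52 ± 0.30 SE, limma adjusted p = 0.00898). In the other genotypes these transcripts were low, Hsp27 with means of 12.7 in WT, 12.2 in the miR-252 mutant and 12.1 in the foxo mutant. The remaining 5 tested small heat shock genes included 1 that rose, CG7409 (0.38, adjusted p = 0.0376), and 4 that did not pass, among them l(2)efl (log2 change 0.01). The 3 falls passed with each library left out in turn. The CG7409 call was lost without double mutant replicates 2 and 3 and without heterozygote replicates 1 and 2 (adjusted p = 0.143, 0.158, 0.0697 and 0.112).

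**Figure D2:**
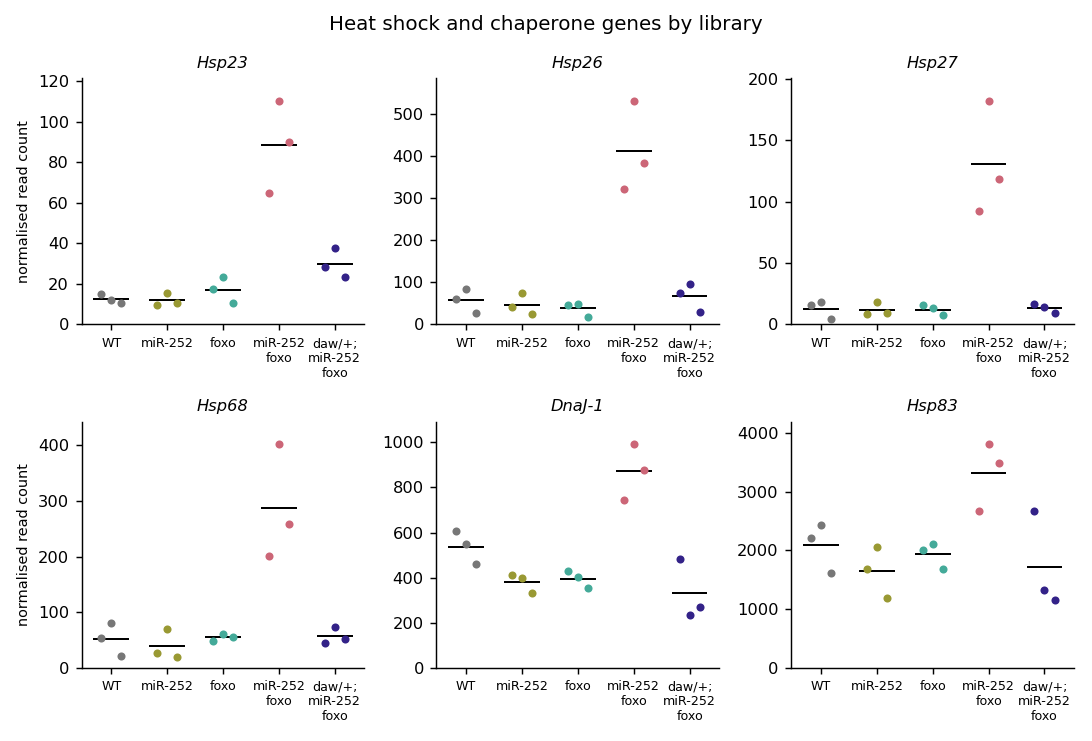
Normalised read counts of 6 heat shock and chaperone genes in the 15 libraries, by genotype, with points for single libraries and a line at the mean of 3. The vertical axes start at 0. For Hsp23, Hsp26, Hsp27 and Hsp68 the 3 double mutant libraries are above those of all 4 other genotypes, and for Hsp83 heterozygote replicate 1 lies within the range of the double mutant.

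Of the 11 tested genes in the list of other chaperones, 5 fell and 1 rose, with a median log2 change of -0.54. The background over all tested genes was 2.30% lower and 2.79% higher. Hsp68, an inducible member of the Hsp70 family, was read at 201, 403 and 258 in the double mutant and 44.7, 73.3 and 51.3 in the heterozygote (log2 -2.30 ± 0.41 SE, limma adjusted p = 0.00471). DnaJ-1, the Hsp40 cochaperone that hands substrates to Hsp70, stood at 745, 993 and 879 and 483, 234 and 271 (log2 -1.47 ± 0.19 SE, limma adjusted p = 0.000294). The groups did not overlap for either gene, and both calls held without any 1 library. Hsp83, the fly Hsp90, was read at 2665, 3812 and 3493 and 2672, 1321 and 1157. Here heterozygote replicate 1 was level with the lowest double mutant library, so the groups overlapped (log2 -1.04 ± 0.25 SE, limma adjusted p = 0.0182). The BAG-domain cochaperone gene stv, which acts in the turnover of muscle filamin, fell (-0.56, adjusted p = 0.0137), as did the mitochondrial Hsp70 gene Hsc70-5 (-0.31, adjusted p = 0.0379), while Hsc70-1 rose (0.45, adjusted p = 0.0268). Hsp83 did not pass without double mutant replicates 2 or 3 or heterozygote replicates 2 or 3 (adjusted p = 0.0739, 0.091, 0.0744 and 0.0914). The stv call was lost without double mutant replicate 2 and heterozygote replicate 2 (adjusted p = 0.0731 and 0.0512), and those of Hsc70-5 and Hsc70-1 in 5 of 6 such fits. With that, 2 of the list fell without double mutant replicate 2 and 3 without double mutant replicate 3 or heterozygote replicates 2 or 3. The Hsp70 copies were below the level filter, with Hsp70Bb at 26.0, 47.8 and 28.9 reads in the double mutant and 1.09, 1.08 and 2.14 in the heterozygote. Reads of these near-identical copies may be split by the counting. Side by side, Hsp68 differed from WT by 2.56 (log2) in the double mutant and by 0.26 in the heterozygote (adjusted p = 0.000102 and 0.725), and DnaJ-1 by 0.70 and -0.77 (adjusted p = 0.0116 and 0.0104), in comparisons that share their WT libraries with each other and the double mutant or heterozygous libraries with the values above.

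Genes of mitochondrial energy production were higher in the heterozygote. Oxidative phosphorylation couples electron transport through complexes I to IV to ATP synthesis by complex V. Of 35 tested nuclear genes of complexes II to V and cytochrome c, 30 rose and none fell, with a median log2 change of 0.53. Of 32 genes of complex I, which takes electrons from NADH, 22 rose and none fell, with a median of 0.50. The background of rises over all tested genes was 2.79%. All 67 log2 changes were positive, the smallest being 0.05 and 0.24 in complex I and in complexes II to V. Summed over the listed genes, complex I was read at 51785, 45862 and 35278 in the double mutant, 58790.5, 65365 and 54896 in the heterozygote and 79789, 75760.0 and 81587 in WT. Complexes II to V summed to 200503, 180203 and 138797, 248034, 259445 and 235661 and 332033, 306617 and 350732. In both sums double mutant replicate 3 was the lowest library, the 3 heterozygous libraries were above all double mutant libraries, and the WT libraries were above both.

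Cytochrome c, the electron carrier encoded by Cyt-c-p, was read at 6071, 5551 and 4524 in the double mutant and 8696, 9071 and 8884 in the heterozygote. The 3 heterozygous libraries were close together and all above the double mutant (log2 0.73 ± 0.11 SE, limma adjusted p = 0.00163), and WT stood higher still at 13017, 12043 and 13156. The cytochrome c oxidase subunit gene cype was at 1759, 1523 and 1212 against 2305, 2612 and 2186 (log2 0.67 ± 0.12 SE, limma adjusted p = 0.00343), and COX5B, of the same complex, at 2686, 2373 and 1834 against 3305, 3953 and 3335 (log2 0.63 ± 0.12 SE, limma adjusted p = 0.00806). UQCR-Q of complex III rose by 0.57 ± 0.11 (adjusted p = 0.00658), and the ATP synthase ring subunit gene ATPsynC, named after its value was seen, was read at 22331, 20011 and 16415 and 27951, 30785 and 29679.6 (log2 0.60 ± 0.14 SE, limma adjusted p = 0.0157). In complex I, ND-B14 rose by 0.61 ± 0.13, ND-23 by 0.53 ± 0.12 and ND-SGDH by 0.51 ± 0.12 (adjusted p = 0.0131, 0.0149 and 0.0151). Cyt-c-p, cype, COX5B and UQCR-Q passed without any 1 library. ND-B14, ND-23, ND-SGDH and ATPsynC did not pass without double mutant replicate 3 (adjusted p = 0.0914, 0.0993, 0.0941 and 0.0854), nor ND-B14 and ND-23 without heterozygote replicate 2 (0.0516 and 0.0535).

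The number of calls in these lists rested on single libraries and on the genotypes in the fit, and the direction did not. When the double mutant and the heterozygote were fitted without the other genotypes, 1 complex I gene and 2 genes of complexes II to V rose. Without double mutant replicate 3, 1 complex I gene and 5 genes of complexes II to V rose, at medians of 0.32 and 0.38, and 31 of 32 and 35 of 35 log2 changes were positive. That complex I gene was ND-B8, which is described below as standing apart from its list and which passed in all 6 fits without 1 library. Without double mutant replicate 2, 7 complex I genes rose, without heterozygote replicate 1, 13, and without heterozygote replicate 2, 2 (medians 0.51, 0.49 and 0.39). For complexes II to V, 19 rose without heterozygote replicate 1 and 14 without heterozygote replicate 2 (medians 0.53 and 0.48). Against WT, 31 complex I genes and 34 of complexes II to V fell in the double mutant (background 12.9% of all genes lower and 12.4% higher), and 18 and 21 fell in the heterozygote (background 8.17% lower and 7.69% higher). The medians were -0.86 and -0.98 in the double mutant and -0.42 and -0.41 in the heterozygote. No gene of either list rose against WT in either genotype.

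**Figure D3:**
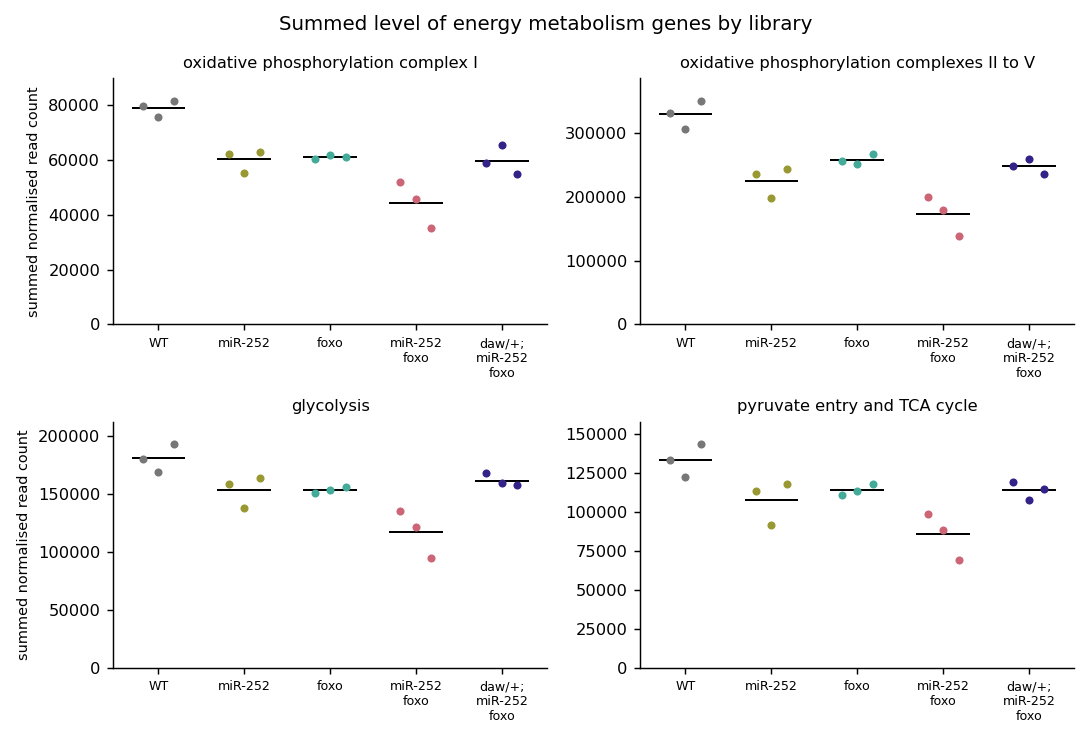
Summed normalised read counts of 4 lists of energy metabolism genes in the 15 libraries, by genotype, with a line at the mean of 3 libraries and vertical axes from 0. The heterozygous libraries lie above those of the double mutant in all 4 lists, at 54896 to 65365 against 35278 to 51785 for complex I, and double mutant replicate 3 is the lowest library in each.

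ND-B8 (recorded as CG15434, 2L 4454626 to 4455207), a complex I subunit gene, stood apart from its list. It was read at 2.52, 3.68 and 2.41 in the double mutant and 62.2, 92.7 and 71.6 in the heterozygote (log2 4.30 ± 0.40 SE, limma adjusted p = 6.27e-06). WT libraries held 300.2, 456 and 318, miR-252 mutants 11.5, 44.2 and 12.6 and foxo mutants 3.32, 6.77 and 2.09. The level of this transcript was thus lowest in the 3 mutant genotypes without the daw allele. In the heterozygote it was also below WT (log2 -2.22, limma adjusted p = 0.000753).

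Glycolysis, which breaks glucose down to pyruvate, showed 7 rises and no fall among 17 tested genes (median 0.38). The background over all tested genes was 2.79% higher and 2.30% lower. Gapdh1, the glyceraldehyde phosphate dehydrogenase gene, was read at 24437, 21255 and 15220.5 in the double mutant and 33639.6, 33042 and 30110.3 in the heterozygote. The groups did not overlap, and the gene passed in every fit without 1 library (log2 0.69 ± 0.14 SE, limma adjusted p = 0.00893). The enolase gene Eno rose by 0.61 ± 0.13, the triose phosphate isomerase gene Tpi by 0.58 ± 0.13 and the phosphoglycerate mutase gene Pglym78 by 0.54 ± 0.13 (adjusted p = 0.0123, 0.0131 and 0.0209). These 3 did not pass without double mutant replicate 3 (adjusted p = 0.0543, 0.0779 and 0.128), nor did Pglym78 without heterozygote replicate 1 (0.0762). In that fit 3 glycolytic genes rose, and without double mutant replicate 3, 1. In a list of pyruvate entry and citric acid cycle genes drawn up after values were seen, 6 of 16 rose (median 0.40), among them the mitochondrial malate dehydrogenase gene Mdh2 (0.60, adjusted p = 0.012) and Idh3a, a subunit of isocitrate dehydrogenase (0.57, adjusted p = 0.0144). None of these 16 passed without double mutant replicate 3, with replicate 2 or heterozygote replicate 3 left out 3 did, without heterozygote replicate 1, 1 did, and without double mutant replicate 1, 12 did. There the medians lay between 0.26 and 0.51. Mdh2 was lost without double mutant replicate 3 (adjusted p = 0.0666), and Idh3a also without heterozygote replicate 1 (0.0896 and 0.0522). Against WT, 12 glycolytic genes fell in the double mutant and 2 in the heterozygote, with 1 rise in each. Over all tested genes, 12.9% and 8.17% fell against WT in these genotypes, and 12.4% and 7.69% rose. Of other metabolic genes the mitochondrial superoxide dismutase gene Sod2 rose (0.60, adjusted p = 0.00995), as did the phosphoenolpyruvate carboxykinase gene Pepck2, read at 159, 141 and 79.5 against 432, 505 and 465 and named after its value was seen (log2 1.93 ± 0.21 SE, limma adjusted p = 4.2e-05). Both passed without any 1 library.

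In 72 tested genes of the mitochondrial ribosome no member passed with limma, edgeR or DESeq2 (median 0.10, 50 positive). Of these, 5 had an unadjusted limma p under 0.05, as did 1578 of all 8357 tested genes. In the cytosolic ribosome 1 of 85 genes rose, beside 2.79% of all tested genes. The median there was 0.10, with 82 positive and 3 negative log2 changes.

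**Figure D4:**
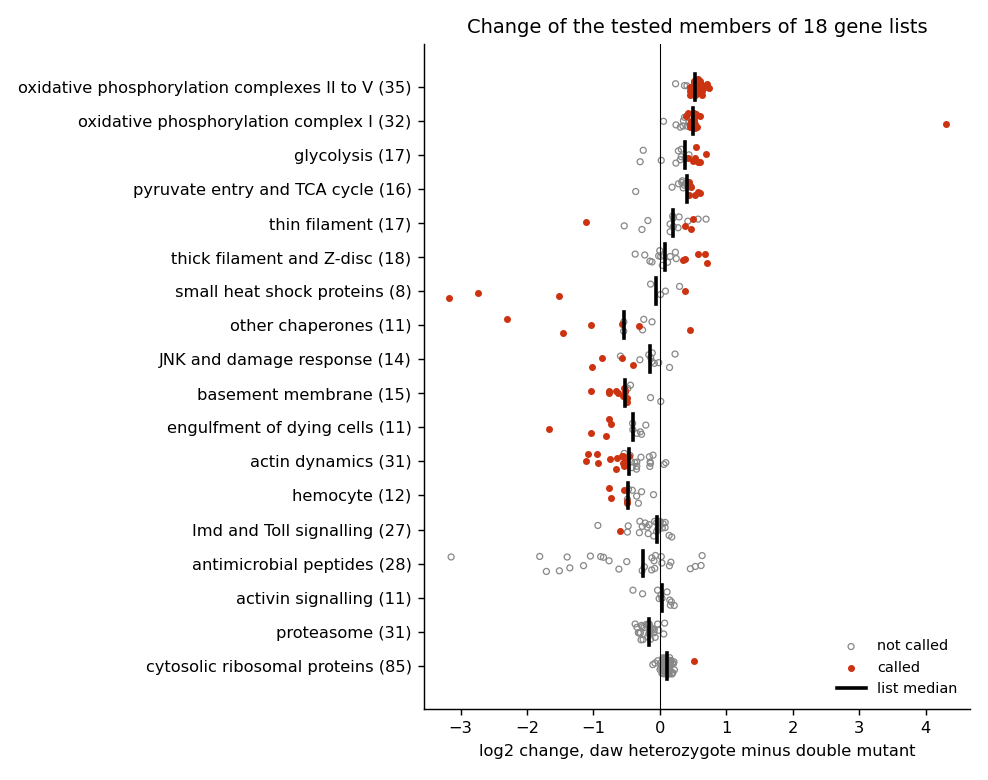
Log2 change of the daw heterozygote against the double mutant for the tested members of 18 gene lists, 1 point per gene, filled where the gene passed. The number of tested members stands in brackets and the bar marks the list median, which is 0.53 and 0.50 in the oxidative phosphorylation lists, -0.54 in the other chaperones and -0.53 in the basement membrane list.

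In the lists of the contractile apparatus most of the called genes rose. The background over all tested genes was 2.79% higher and 2.30% lower. Among 17 tested thin filament genes 3 rose and 1 fell (median 0.20). The muscle actin gene Act87E was read at 1409, 1289.9 and 1416 in the double mutant and 1934, 2049 and 1715 in the heterozygote (log2 0.47 ± 0.09 SE, limma adjusted p = 0.00929), and Act79B, another muscle actin, at 7507, 7381 and 8726 and 10688, 10823 and 9178 (log2 0.38 ± 0.10 SE, limma adjusted p = 0.0355). The troponin C gene TpnC41C rose by 0.50 ± 0.12 (adjusted p = 0.0182). The gene that fell was Act42A, which encodes a cytoplasmic actin, at 496, 617 and 1282 against 325, 386 and 308 (log2 -1.11 ± 0.25 SE, limma adjusted p = 0.0141). Its highest value was that of double mutant replicate 3, without which it did not pass (adjusted p = 0.0779). Act87E passed without any 1 library, Act79B in 2 and TpnC41C in 3 of these fits. The thin filament list had 1 rise without double mutant replicate 2 and 1 without heterozygote replicate 2. Of 18 thick filament and Z-disc genes 5 rose (median 0.08). Mf, which encodes myofilin of the thick filament, was at 28914, 26449 and 18845 against 37015, 42212 and 38097 (log2 0.68 ± 0.13 SE, limma adjusted p = 0.00893) and passed without any 1 library. The paramyosin gene Prm rose by 0.39 ± 0.10, the flightin gene fln by 0.71 ± 0.19 and the myosin light chain gene Mlc1 by 0.35 ± 0.09 (adjusted p = 0.0289, 0.0339 and 0.0341). These 3 were lost in 4, 5 and 5 of the 6 fits without 1 library. The list had 1 rise without double mutant replicates 2 or 3 or heterozygote replicate 3, 2 without heterozygote replicate 1 and 3 without heterozygote replicate 2.

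The 14 tested flight and body muscle markers summed to 95666 to 101274 normalised reads in the double mutant and 96748 to 106055 in the heterozygote, with 3 rises and a median log2 change of 0.15. Markers of the testis and the male accessory gland were not among the tested genes. The 3 yolk protein genes did not pass with limma (median 0.27), though their groups did not overlap, 2 had an unadjusted p under 0.05 and 1 rose with edgeR, with DESeq2 and with limma at a mean of at least 50. Of the 10 fat body markers 1 rose and 2 fell. The shares of all tested genes that rose and fell were 2.79% and 2.30%.

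Among the genes named for the size of their fall, Arc1 had the highest counts. Arc1 encodes a Gag-like protein that forms capsids and carries its own transcript between cells. It was read at 9788, 12039 and 17488 in the double mutant and 1671, 4466 and 2882 in the heterozygote, the groups being far apart (log2 -2.19 ± 0.28 SE, limma adjusted p = 0.000205), and at 954, 1675 and 821 in WT. The larval serum protein genes Lsp1beta and Lsp2, which encode storage hexamerins of the fat body, stood at 2033, 2821 and 4969 against 575, 509 and 1160.5 and at 1385, 670.2 and 984 against 400.5, 171 and 247 (adjusted p = 0.00893 and 0.0476). Lsp1gamma, another hexamerin gene, rose, from 35.2, 31.3 and 28.9 to 54.6, 53.9 and 55.6 (log2 0.77 ± 0.19 SE, limma adjusted p = 0.0237). The tubulin isotype gene betaTub60D fell from 786, 904 and 1942 to 432, 388 and 305 (log2 -1.58 ± 0.26 SE, limma adjusted p = 0.00288), and the methuselah-like receptor gene mthl2 fell as well (log2 change -1.59 ± 0.30, adjusted p = 0.00806). The alpha-glucosidase gene tobi, known as a target of insulin-like peptides and of a glucagon-like hormone in flies, fell (log2 change -1.27 ± 0.33, adjusted p = 0.0291), as did the adenosine deaminase gene Adgf-A (-1.12 ± 0.29, adjusted p = 0.0293). Arc1, betaTub60D and mthl2 passed in every fit without 1 library. Lsp1beta was lost without double mutant replicate 3 (adjusted p = 0.0557), Lsp2 and Lsp1gamma in 5 fits, Adgf-A in 3 and tobi in all 6 (0.0979, 0.0549 and 0.079 without the double mutant replicates and 0.0569, 0.0873 and 0.0714 without the heterozygote ones). ImpL2, which encodes a secreted protein that binds insulin-like peptides and blocks their action, was read at 1513, 1905 and 1841 in the double mutant and 1215, 1207 and 879 in the heterozygote. It was the 1 gene of 18 in the insulin and FoxO list that passed (log2 -0.68 ± 0.14 SE, limma adjusted p = 0.0114), and it was lost without double mutant replicate 3 (adjusted p = 0.0557). Of all tested genes 5.09% passed.

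The genes named for the size of their rise had lower counts on the whole. The mucin gene Muc14A went from 10.9, 6.44 and 6.42 reads in the double mutant to 72.0, 55.0 and 76.9 in the heterozygote (log2 2.97 ± 0.50 SE, limma adjusted p = 0.00288), and it was at 3.17, 0.998 and 1.04 in WT. The opsin gene ninaE, expressed in photoreceptors, was read at 16.8, 10.1 and 9.64 and 224, 29.1 and 86.6 (log2 2.71 ± 0.75 SE, limma adjusted p = 0.0417). It varied widely within WT (23.3, 134.7 and 13.5) and the foxo mutant (184.8, 27.1 and 100.5), and less within the miR-252 mutant (19.8, 12.9 and 45.6). Against WT it passed neither in the double mutant nor in the heterozygote (limma adjusted p = 0.156 and 0.308). All 5 tested eye markers had positive log2 changes, with a median of 2.50. Their summed level with the untested eye markers was 186 to 206 in the double mutant and 219 to 620 in the heterozygote, and the part of eye RNA in the ninaE result was not tested. The polyubiquitin gene Ubi-p5E rose from 449.8, 444 and 482 to 793, 699.9 and 926 (log2 0.80 ± 0.12 SE, limma adjusted p = 0.000706), below its WT level of 1495, 1516 and 1308. The gene bgm, which encodes a very long-chain acyl-CoA synthetase, rose by 0.79 ± 0.12 (adjusted p = 0.00111), Jabba, which anchors histones on lipid droplets, by 0.82 ± 0.19 (adjusted p = 0.0172), and the glutathione transferase-like gene Mgstl by 0.82 ± 0.18 (adjusted p = 0.013). The gene lcs stood at 2241, 2017 and 2652 against 4279.8, 5009.6 and 3799 (log2 0.92 ± 0.15 SE, limma adjusted p = 0.00214). Diedel3 rose by 1.11 ± 0.28, the cuticle protein gene Cpr47Ea by 1.07 ± 0.24 and the chitinase-like growth factor gene Idgf5 by 0.80 ± 0.23 (adjusted p = 0.0251, 0.0156 and 0.0443). Muc14A, Ubi-p5E, bgm and lcs passed without any 1 library. The calls of ninaE, Diedel3 and Idgf5 were lost in 4 of these fits, that of Jabba in 3, that of Cpr47Ea in 2 and that of Mgstl in 1.

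In the list of JNK signalling and the damage response 4 of 14 tested genes fell and none rose (median -0.15), beside 2.30% and 2.79% of all tested genes. JNK signalling is a stress kinase cascade that answers wounding and cell damage. Its upstream ligand gene egr, the fly tumour necrosis factor, was read at 184, 177 and 362 in the double mutant and 139.7, 115 and 119 in the heterozygote (log2 -0.87 ± 0.19 SE, limma adjusted p = 0.0132). Mmp1, a secreted metalloprotease gene known as a JNK target, stood at 344, 382 and 465 against 299, 273 and 229.7 (log2 -0.57 ± 0.14 SE, limma adjusted p = 0.0245), and the stress gene Gadd45 at 298, 359 and 298 against 182, 251 and 83.3 (log2 -1.02 ± 0.25 SE, limma adjusted p = 0.0248). The kinase gene msn, which acts upstream in the cascade, fell too (log2 change -0.41 ± 0.11, adjusted p = 0.0442). For all 4 genes the groups did not overlap. The feedback phosphatase gene puc (log2 change -0.17, adjusted p = 0.496) and the kinase gene bsk itself (-0.11, adjusted p = 0.668) did not pass. None of the 14 passed without double mutant replicate 3, and without double mutant replicate 2 or heterozygote replicate 3, 1 did. The egr call was lost only without double mutant replicate 3 (adjusted p = 0.0557), where egr stood at its highest, those of Mmp1 and Gadd45 were lost in 3 fits and that of msn in 5. Against WT, 6 of the 14 rose in the double mutant and 2 in the heterozygote, beside 12.4% and 7.69% of all tested genes.

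The next 3 lists were drawn up after values were seen. The basement membrane is the sheet of collagen IV, laminin and perlecan around muscle fibres and other tissues. Of 15 tested genes of its list 11 fell and none rose (median -0.53). The background of falls over all tested genes was 2.30%, but a list chosen with values in view cannot be weighed against it. LanA, a laminin alpha chain gene, was read at 738, 775 and 1017 in the double mutant and 541, 391 and 551 in the heterozygote (log2 -0.77 ± 0.14 SE, limma adjusted p = 0.00658), and the papilin gene Ppn at 3321, 3696 and 5508 against 2582, 1949 and 2771 (log2 -0.76 ± 0.15 SE, limma adjusted p = 0.00967). The collagen IV genes Col4a1 and vkg stood at 3478, 3882 and 4421 against 3042, 2548 and 2764 and at 1970.4, 1919 and 2404 against 1596, 1375 and 1485 (adjusted p = 0.0113 and 0.0106). In each of these 4 genes the groups did not overlap. LanA, Ppn and the laminin alpha gene wb (-1.04, adjusted p = 0.00806) passed without any 1 library, while Col4a1 and vkg were lost without double mutant replicate 3 (adjusted p = 0.0584 and 0.0557). Without that library 4 of the 15 fell, and without double mutant replicate 2 or heterozygote replicate 2, 6 did. SPARC, a collagen-binding matrix gene, did not pass (1638, 1653 and 1849 against 1559, 2001 and 1652, adjusted p = 0.961).

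Of 11 genes for the engulfment of dying cells 5 fell and none rose (median -0.41). The phagocytic receptor gene drpr was read at 728, 848 and 1358 in the double mutant and 514, 558 and 535 in the heterozygote (log2 -0.82 ± 0.16 SE, limma adjusted p = 0.00806), crq, which encodes a CD36-like receptor, at 633, 732 and 1051 against 458, 419.5 and 541 (log2 -0.74 ± 0.16 SE, limma adjusted p = 0.0114), and the integrin alpha gene scb at 251, 319.9 and 553 against 177, 189.8 and 151 (log2 -1.04 ± 0.24 SE, limma adjusted p = 0.0173). The drpr call held without any 1 library, that of crq was lost without double mutant replicate 3 (adjusted p = 0.0689) and that of scb without double mutant replicate 3 or heterozygote replicate 3 (0.128 and 0.0663). Of the 11, 1 fell without double mutant replicate 3, and without each of the heterozygote replicates 3 did. In the list of actin dynamics 13 of 31 genes fell and none rose (median -0.46). Fhos, a formin that assembles actin filaments and acts in muscle growth and immune cells, stood at 12771, 12647 and 12470.1 in the double mutant and 6841, 5702 and 7190.4 in the heterozygote, with both groups tight and far apart (log2 -0.95 ± 0.12 SE, limma adjusted p = 0.000294), and at 5409.6, 5698 and 6822 in WT. The tyrosine kinase gene Abl fell (log2 change -0.75 ± 0.13, adjusted p = 0.00288), as did Cortactin (-0.93 ± 0.19, adjusted p = 0.0114) and the actin-binding gene cib (-1.09 ± 0.26, adjusted p = 0.0192). Fhos and Abl passed without any 1 library, while Cortactin and cib were lost without double mutant replicate 3 (adjusted p = 0.0537 and 0.0708) and cib also without heterozygote replicate 3 (0.0695). Of the 31 genes, 2 fell without double mutant replicate 3, 7 without double mutant replicate 2 and 5 without heterozygote replicate 3.

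Markers of hemocytes, the macrophage-like blood cells of flies, were lower as well, but they share members with these lists. Of the 12 tested markers 5 fell (Col4a1, vkg, crq, Pxn and eater), beside 2.30% of all tested genes. All 12 log2 changes were negative and the median was -0.48. All 5 that fell are also members of the basement membrane or engulfment lists. Of the 6 tested markers in none of these lists none passed with limma and 4 had an unadjusted p under 0.05, with 6 negative log2 changes and a median of -0.38. Summed over all 15 listed markers, the double mutant held 12763, 12956 and 15762, the heterozygote 10537, 8949 and 10374 and WT 7903, 7402 and 7226. The hemolectin gene Hml, a defining marker, was at 1549, 1684 and 2514 against 1403, 1031 and 1641 (log2 -0.49 ± 0.17 SE, limma adjusted p = 0.0999), with overlapping groups, and NimC1 at 333, 330.1 and 465 against 291, 305 and 324 (adjusted p = 0.247). The prophenoloxidase gene PPO1 of crystal cells was at 1704, 1443 and 1498 against 1177, 1109.8 and 1189 (adjusted p = 0.0853). Of the markers He, PPO3 and lz, which were below the level filter, none was at 0 in any of the 6 libraries. None of the 12 passed without double mutant replicate 3, and without heterozygote replicate 2, 3 did. Hemocytes produce collagen IV and laminin and express drpr and crq, and the part of hemocyte RNA in the basement membrane, engulfment and actin lists was not tested.

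**Figure D5:**
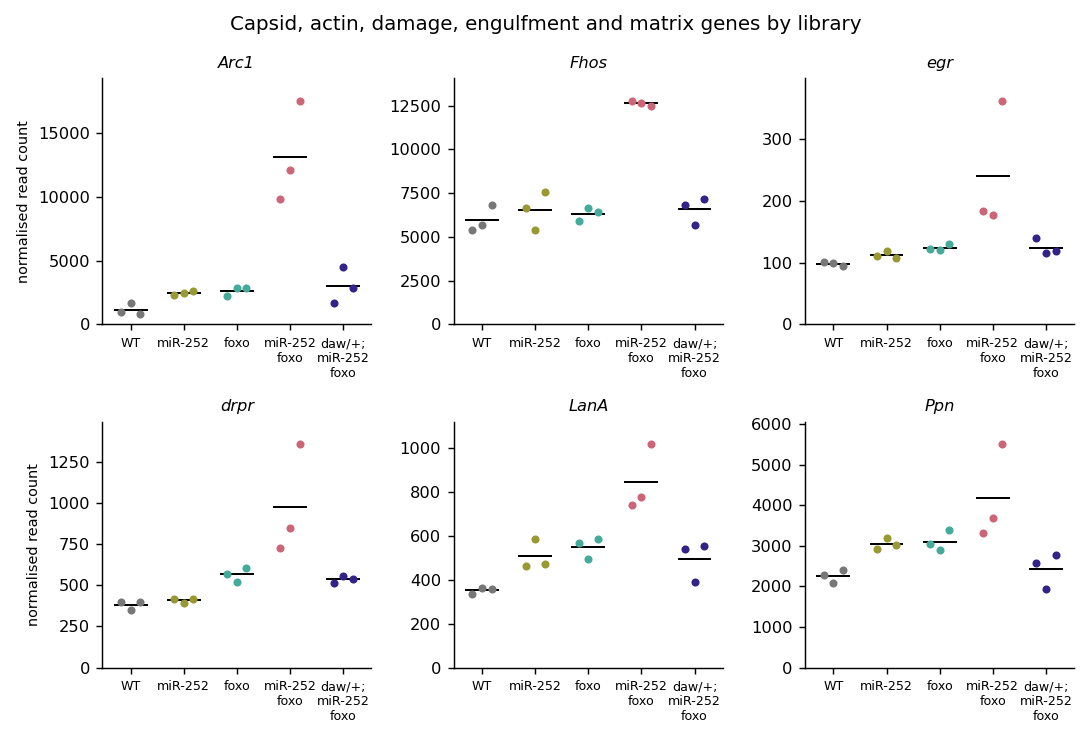
Normalised read counts of Arc1, Fhos, egr, drpr, LanA and Ppn in the 15 libraries, by genotype, with a line at the mean of 3 libraries and vertical axes from 0. For Arc1, Fhos, egr, drpr and LanA the 3 double mutant libraries are above all libraries of the other 4 genotypes, and for Ppn they are above those of the heterozygote and WT, while the lowest of them (3321) is below the highest foxo mutant library (3383).

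Most antimicrobial peptide genes were above WT in both genotypes, and the 2 genotypes overlapped widely for some of them. None of the 28 tested antimicrobial peptide genes passed with limma or DESeq2 (2 at an unadjusted limma p under 0.05, while 2 fell with edgeR and 3 with limma on the 2 genotypes alone), with a median of -0.25 and 20 negative log2 changes. Drs, the gene of the antifungal peptide drosomycin, was read at 5275, 4797 and 4795 in the double mutant and 3352, 6423 and 1996 in the heterozygote (log2 -0.50 ± 0.68 SE, limma adjusted p = 0.755), against 418, 689 and 194 in WT. The spread was wide within the heterozygote, where replicate 2 was the highest of the 6 libraries and replicate 3 the lowest. The defensin gene Def was lower in every heterozygous library, at 90.6, 74.5 and 68.3 against 22.9, 38.8 and 10.7, and missed the threshold (log2 -1.81 ± 0.58 SE, limma adjusted p = 0.0777). Against WT 23 of the 28 rose in the double mutant and 17 in the heterozygote, at medians of 2.49 and 2.43. Over all tested genes, 12.4% and 7.69% rose against WT in these genotypes. Of 27 genes of Imd and Toll signalling, Rel fell, which encodes the NF-kappaB protein activated by Imd signalling, from 793, 959 and 1109.8 to 625, 711 and 544 (log2 -0.60 ± 0.15 SE, limma adjusted p = 0.0215). That call was lost without double mutant replicates 2 or 3 and without heterozygote replicates 1 or 3 (adjusted p = 0.0634, 0.14, 0.0511 and 0.0901). None of 9 peptidoglycan recognition genes passed with limma or DESeq2 (median -0.57), and 3 had an unadjusted limma p under 0.05. In that list 1 gene fell with edgeR, with limma on the 2 genotypes alone, at a mean of at least 50 and without heterozygote replicate 2. With limma 1578 of all 8357 genes had an unadjusted p under 0.05, and 2.30% fell at an adjusted p under 0.05.

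Digestive genes were mixed. The background over all tested genes was 2.79% higher and 2.30% lower. Of 17 proteases of the Jonah and trypsin-like list 3 rose, epsilonTry (0.59, adjusted p = 0.0167), Jon99Ci (0.46, adjusted p = 0.0245) and Jon99Ciii (0.46, adjusted p = 0.0251). Of the near-identical amylase copies, Amy-p was at 3899.7, 4046 and 3374 against 5854, 5054 and 4680.4 (log2 0.46 ± 0.12 SE, limma adjusted p = 0.027) and Amy-d at 3159.5, 3449 and 3055 against 2536, 1947 and 2055 (log2 -0.57 ± 0.12 SE, limma adjusted p = 0.012). They moved in opposite directions, and the counting may split reads between them. Without double mutant replicate 3 no protease of the list passed, and epsilonTry, Jon99Ci and Jon99Ciii were at adjusted p = 0.0951, 0.128 and 0.15. The epsilonTry call was also lost without heterozygote replicate 2 (0.0669), that of Jon99Ciii without heterozygote replicates 2 or 3 (0.0672 and 0.0568), and that of Jon99Ci without double mutant replicate 1 or heterozygote replicates 1 or 3 (0.0546, 0.0811 and 0.0631). Double mutant replicate 3 and heterozygote replicate 1 ended the Amy-p call (0.138 and 0.112), and double mutant replicate 2 the Amy-d call (0.0513). Gut markers summed to 27625 to 35394 reads in the double mutant and 35732 to 42199 in the heterozygote, and the part of gut RNA in these changes was not tested. Among 55 cytochrome P450 genes 2 rose and 2 fell, beside 2.79% and 2.30% of all tested genes. Cyp4g1, the oenocyte enzyme that makes cuticular hydrocarbons, was at 9199, 10883 and 11588 against 15443, 14947 and 21880.1 (log2 0.71 ± 0.14 SE, limma adjusted p = 0.00898) and passed without any 1 library. The aldehyde dehydrogenase gene Aldh fell from 4268, 4020.4 and 3681 to 2780.5, 2772 and 2519 (log2 -0.57 ± 0.09 SE, limma adjusted p = 0.00174), also in every such fit. With limma, edgeR and DESeq2 no member passed among 31 proteasome genes (median -0.17, 29 negative), 27 lysosomal and V-ATPase genes, 10 clock genes, 10 genes of the microRNA pathway and 8 markers of the Malpighian tubule, where 6, 5, 1, 1 and 3 had an unadjusted limma p under 0.05. So did 1578 of all 8357 tested genes.

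Called genes were spread over the chromosome arms. The percentages of tested genes called were 5.66 on 2L, where daw lies, 5.96 on 2R, 4.52 on 3L, 3.95 on 3R, 2.70 on 4 and 5.84 on X. Within 500 kb of daw 3 of 78 tested genes passed (3.85%). They were the complex I gene ND-B14.5B (0.51, adjusted p = 0.0204), the phosphoglycerate kinase gene Pgk of glycolysis, read at 4231, 3994 and 2639.5 against 5354, 5286 and 4951 (log2 0.55 ± 0.14 SE, limma adjusted p = 0.0268), and CG3609 (-0.56, adjusted p = 0.0245). Each of the 3 was lost in at least 3 of the 6 fits without 1 library. From 500 to 1000 kb 8 of 77 passed (10.4%) and from 1000 to 2000 kb 8 of 117 (6.84%). Between 2000 and 5000 kb 23 of 332 passed (6.93%), between 5000 and 10000 kb 26 of 407 (6.39%) and beyond 10000 kb 17 of 491 (3.46%). The share over all tested genes was 5.09%.

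A few transcripts, chosen after their values were seen, were at or near 0 in libraries of 1 group. CG15818 (2L 7410909 to 7412229) had the largest change of all tested genes. It was read at 9.23, 9.19 and 3.21 in the double mutant and 488, 635 and 607 in the heterozygote (log2 6.24 ± 0.30 SE, limma adjusted p = 7.95e-11), against 217, 202 and 163 in WT. The miR-252 mutants held 177, 223 and 95.1 and the foxo mutants 180, 163 and 233. In the heterozygote CG15818 was above WT (log2 1.57, limma adjusted p = 0.00109). The gene sordd2 (X 15796908 to 15799162) was at 0 in all libraries of the double mutant and of both single mutants, at 32.7, 20.5 and 38.5 in the heterozygote and at 89.8, 86.8 and 84.2 in WT. Against a floor of 3 reads over the double mutant libraries it was at least 35.8-fold higher in the heterozygote, a bound that covers counting error only (limma adjusted p = 4.2e-05). In the other direction CNMaR, a neuropeptide receptor gene (3L 9644109 to 9659433), was read at 84.8, 103 and 159.8 in the double mutant and 0, 41.0 and 42.7 in the heterozygote (log2 -3.20 ± 0.90 SE, limma adjusted p = 0.0449). Without heterozygote replicate 1, the library at 0, its log2 change was -1.40 (adjusted p = 0.0602). CG15818 and sordd2 passed without any 1 library, and CNMaR was lost in 4 of these fits. For CG15818, sordd2 and ND-B8, as for every other called gene, the daw allele and other differences between the fly stocks cannot be told apart.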

How the data were processed

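RNA from muscle of 3 d females was extracted with Trizol, polyA-selected and made into libraries with the NEBNext Ultra kit, per the labels' protocols. The values analysed are a signal per gene: read counts that the authors divided by a DESeq size factor per library and deposited as 1 table of 15 libraries, per the file headers. STAR, HTSeq, DESeq and the build dm6 are named, without versions, in the submitters' processing notes. The strand setting of the counting was not given in the sources used here. Antisense or overlapping genes and near-identical copies may therefore share reads. In all used columns 100% of values were whole multiples of 1 read within 0.01, and 0 pairs of libraries were identical. The WT columns could not be tied to single samples by number, and 1 of them, whose step is close to 1 per read, stayed out of the count tests.

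Genes that averaged 10 or more over the 15 libraries were fitted as log2(value + 1) with limma 3.58.1 (R 4.3.3), with a trended variance, 5 genotypes as groups and no replicate block. P-values were adjusted by Benjamini-Hochberg over 8357 genes and called under 0.05, with no fold minimum. Fold changes on this scale understate those of low genes. Intervals and floors cover the spread of these libraries or counting error only. On the recovered reads of 14 libraries, edgeR 4.0.16 (quasi-likelihood, TMM) called 435 genes, 230 higher and 205 lower, and DESeq2 1.42.0 called 478, 263 higher and 215 lower. Of 200 genes changed in simulated counts, limma recovered 87% at 2-fold and 99% at 4-fold, with none of the wrong sign. The simulation held no outlying library and no change under 2-fold. Of the 425 called genes only 70 changed at least 2-fold, so these rates do not measure how far the calls hold. Other alternatives were upper-quartile scaling, a pseudocount of 8, no filter, a mean of at least 50, a fit of the 2 genotypes alone, a replicate block over the 4 mutant genotypes, and each of the 6 libraries left out in turn.

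Of 10258 entries, 8241 matched a current symbol, 1580 were matched through another deposited table and 395 through RefSeq synonyms, and 42 were not matched. Coordinates are those of the BDGP6.54 annotation, which shares the dm6 assembly. The genes named are those of the study, the 12 largest rises and falls among called genes with a symbol, no overlap between groups and an average of 50 or more in the higher one, up to 4 members per list with 3 or more calls, up to 2 of the highest mean in other lists, and called genes within 500 kb of daw. The members and lists were chosen with earlier results of these data known, and 4 lists (pyruvate entry and citric acid cycle, basement membrane, engulfment, actin dynamics) were drawn up after values of this comparison were seen.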

Additional observations from a re-analysis of the deposited data

How the results depend on the processing

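With 3 libraries a group and most calls lost without double mutant replicate 3 (105 of the 425 passed without it), the number of calls is the least certain quantity, and changes of low genes are limited by depth. Of the 425 called genes, 386 were also called after upper-quartile scaling, 422 with a pseudocount of 8, 394 with no filter, 388 at a mean of at least 50, 400 with edgeR, 387 with DESeq2 and 96 when only the 2 genotypes were fitted, and none of the 425 had the other sign in any of these or of the fits below. The 2-genotype fit, which has fewer residual degrees of freedom, gave 56 rises and 57 falls, with 1 rise in complex I, 2 in complexes II to V, 1 in the thick filament list, 0 in the thin filament and glycolysis lists, 2 falls among the other chaperones and 0 among the JNK and hemocyte lists. It also left 3 of 11 falls in the basement membrane list, 2 of 13 in actin dynamics, 1 of 5 in engulfment and 0 of 6 rises in the pyruvate and citric acid cycle list, and called 3 antimicrobial peptide genes and 1 peptidoglycan recognition gene lower. In the pyruvate and citric acid cycle list 10 genes rose after upper-quartile scaling and 11 with DESeq2. With no filter 8 other chaperones fell, and at a mean of at least 50, 1 small heat shock gene did, since the filter left fewer genes. Replicate numbers did not pair the libraries (same-number correlations of deviations from the group means -0.013 to 0.027, other numbers -0.067 to 0.075). The replicate block over the 4 mutant genotypes gave 233 rises and 191 falls, and the same 12 libraries without the block, a fit added after the data were seen, 195 and 157, with 14 rises in complex I.

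Over the fits without 1 library, rises ranged from 66 to 261 and falls from 44 to 218. Complex I gave 1 to 30 rises, complexes II to V 5 to 34, glycolysis 1 to 9, and the thin and thick filament lists 1 to 4 each. Falls numbered 2 to 4 among the other chaperones, 0 to 4 in the JNK list, 0 to 7 among hemocyte markers and 3 in each fit among small heat shock genes. The basement membrane list gave 4 to 10 falls, actin dynamics 2 to 15 and engulfment 1 to 5, and the pyruvate and citric acid cycle list 0 to 12 rises. Among lists with no call, 1 gene was called in 1 or 2 of these fits in each of the mitochondrial ribosome, proteasome, lysosome, peptidoglycan recognition and Malpighian tubule lists. The daw difference ranged from -0.11 to 0.07 across these fits, and was 0.02 after upper-quartile scaling. Uncalled named genes near 0 changed sign in single fits. Vha16-1 was at 0.02 after upper-quartile scaling. Over the fits without 1 library, foxo ranged from -0.04 to 0.14, babo from -0.14 to 0.21, IM4 from -0.19 to 0.0008, nec from -0.29 to 0.07, cact from -0.06 to 0.18, Stat92E from -0.01 to 0.15, Desat1 from -0.02 to 0.17, tim from -0.25 to 0.04, gw from -0.11 to 0.21, Syt1 from -0.05 to 0.31, norpA from -0.01 to 0.26 and RpL3 from -0.01 to 0.04. For these changes of count or sign the cause was not tested, those of the 2-genotype fit included. The exception is the small heat shock list at a mean of at least 50, where fewer genes were tested.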

Other observations

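The genes below are in no list used above and were picked after their values were seen, so they stand as values only. The mitochondrial outer membrane channel gene porin was read at 4541, 4109.5 and 3350.2 in the double mutant and 6269, 5803 and 5835 in the heterozygote (log2 0.59 ± 0.10 SE, limma adjusted p = 0.00456), with no overlap and in every fit without 1 library, and sesB, the ADP/ATP exchanger of the inner mitochondrial membrane, at 34849, 31527 and 26213 against 40753, 41245 and 43844 (log2 0.45 ± 0.12 SE, limma adjusted p = 0.0366), which passed in 1 of these 6 fits. The arginine kinase gene Argk1, whose product buffers ATP in insect muscle, stood at 11422, 10427 and 9753 against 14588, 13567 and 13263 (adjusted p = 0.0251) and passed in 3 of the fits. The gene whe had a larger rise, from 2559.5, 2517 and 2745 to 5457, 7132 and 5767 (log2 1.22 ± 0.14 SE, limma adjusted p = 7.42e-05), against 11099, 8289.7 and 10424 in WT, and passed in every such fit.

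Xrp1, a bZIP transcription factor gene that acts downstream of p53 and in ribosomal stress in flies, was read at 2476, 2552 and 2961 in the double mutant and 2101, 2010.3 and 1595 in the heterozygote (log2 -0.49 ± 0.11 SE, limma adjusted p = 0.0144) and passed in 4 of 6 fits without 1 library. The bZIP gene Atf3 (-0.43 ± 0.11, adjusted p = 0.03) and the single-stranded DNA-binding protein gene RPA1 (-0.64 ± 0.14, adjusted p = 0.012) also fell, and passed in 2 and 5 of these fits. The secreted ferritin chains, which store iron, stood at 4780.0, 4864 and 5695 against 3414, 4538 and 2555 for Fer1HCH (adjusted p = 0.0315) and at 5170.2, 5193 and 6252 against 3788, 5097 and 2971 for Fer2LCH (adjusted p = 0.0497), and passed in 2 and 1 of the 6 fits.

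Nrg, the fly neuroglian, an adhesion protein of septate junctions, was read at 857, 958 and 1089 in the double mutant and 717, 565 and 632 in the heterozygote (log2 -0.60 ± 0.11 SE, limma adjusted p = 0.00658) and passed in every fit without 1 library. Fas3, another adhesion gene of these junctions, stood at 255, 242 and 428 against 179, 181 and 177 (log2 -0.73 ± 0.17 SE, limma adjusted p = 0.0179), and moody, a receptor of the glial blood-brain barrier, at 231, 221 and 227 against 162, 139 and 168 (log2 -0.54 ± 0.12 SE, limma adjusted p = 0.013), both passing in 5 of the 6 fits.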
